A study of Drosophila melanogaster with 6 samples.

Results

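The levels of 10 genes of fatty acid synthesis and modification were followed in stage 11 Drosophila embryos: SREBP, ACC, FASN1, ATPCL, Desat1, CG9747, CG9743, Elovl7, bond and Baldspot. All probe sets whose annotated gene, brought to current symbols, is 1 of these 10 genes were taken, which gave 9 of the 18769 probe sets on the array (which name 11953 genes), 1 for each gene except Baldspot. No probe set was named for Baldspot, the fly gene related to the vertebrate elongase ELOVL6, so it has no value here. RNA came from 3 independent collections of wild type (WT) embryos of the Oregon R strain and 3 of embryos carrying the fkh6 allele of fork head, the fly FoxA transcription factor gene. The labels give both groups Oregon R as their strain and the same embryonic stage, 11. Collections went through an embryo sorter, each was hybridized to its own Affymetrix Drosophila Genome 2.0 array, and the values are log2 intensities after RMA, the normalization used by the authors.

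Fatty acids are built from acetyl-CoA. ATP citrate lyase (ATPCL) makes acetyl-CoA in the cytosol, acetyl-CoA carboxylase (ACC) turns it into malonyl-CoA, and fatty acid synthase (FASN1) joins these units into saturated chains. Acyl-CoA desaturases then place double bonds, and elongases carry out the first step of a cycle that lengthens the chain in the endoplasmic reticulum. SREBP is a transcription factor held in that membrane until it is cut free. In flies its release is governed by phosphatidylethanolamine, and it acts on genes of fatty acid synthesis. Products of these pathways serve membranes and storage fat, and in insects also the waterproofing lipids and hydrocarbons of the cuticle, made largely by oenocytes.

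Whole embryos were measured, so fewer cells of a type and less RNA per cell cannot be told apart. The sources used here do not say by which mark the sorter recognised mutant embryos for the arrays. Values for fkh itself were 10.23, 10.11 and 10.28 in WT replicates 1, 2 and 3 and 10.83, 10.62 and 10.64 in the fkh replicates (log2). Its transcript was thus 1.404-fold higher in the mutants (adjusted p = 0.012 from limma), barely past the fold minimum, and the call was lost without pooling of the spread (adjusted p = 0.053), after centring on array medians and without WT replicate 1, WT replicate 2 or fkh replicate 1. This level does not check the label. The patterning genes eve, en, hh, ato, twi and Scr were taken as markers of the stage. Of these, hh was called lower (1.55-fold, and 1.399-fold and not called after cyclic loess), against 7.9% of all genes with 1 probe set each. The other 5 were not called. These values do not show that the collections matched in age, which was not tested. All 6 arrays entered 1 limma fit, and p-values were corrected for the whole array (Benjamini-Hochberg). Calls needed a corrected p below 0.05 together with more than a 1.4-fold difference.

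Of the 9 measured genes 5, or 55.6%, were called higher in fkh mutants and 0 lower. Among all probe sets, 6.19% were called higher and 6.13% lower. The 5 genes were the regulator SREBP, the carboxylase ACC, the desaturases CG9747 and CG9743 and the elongase Elovl7, and 3 of them (CG9747, CG9743 and Elovl7) rose by over 2-fold. In 6 genes every fkh array lay above every WT array, a pattern found in 13.5% of the probe sets overall. The median log2 fold change of the 9 genes was 0.65, against -0.08 over all probe sets. The genes and the lists below were put together with earlier results of these arrays known, so the counts describe them and do not test them.

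**Figure D1:**
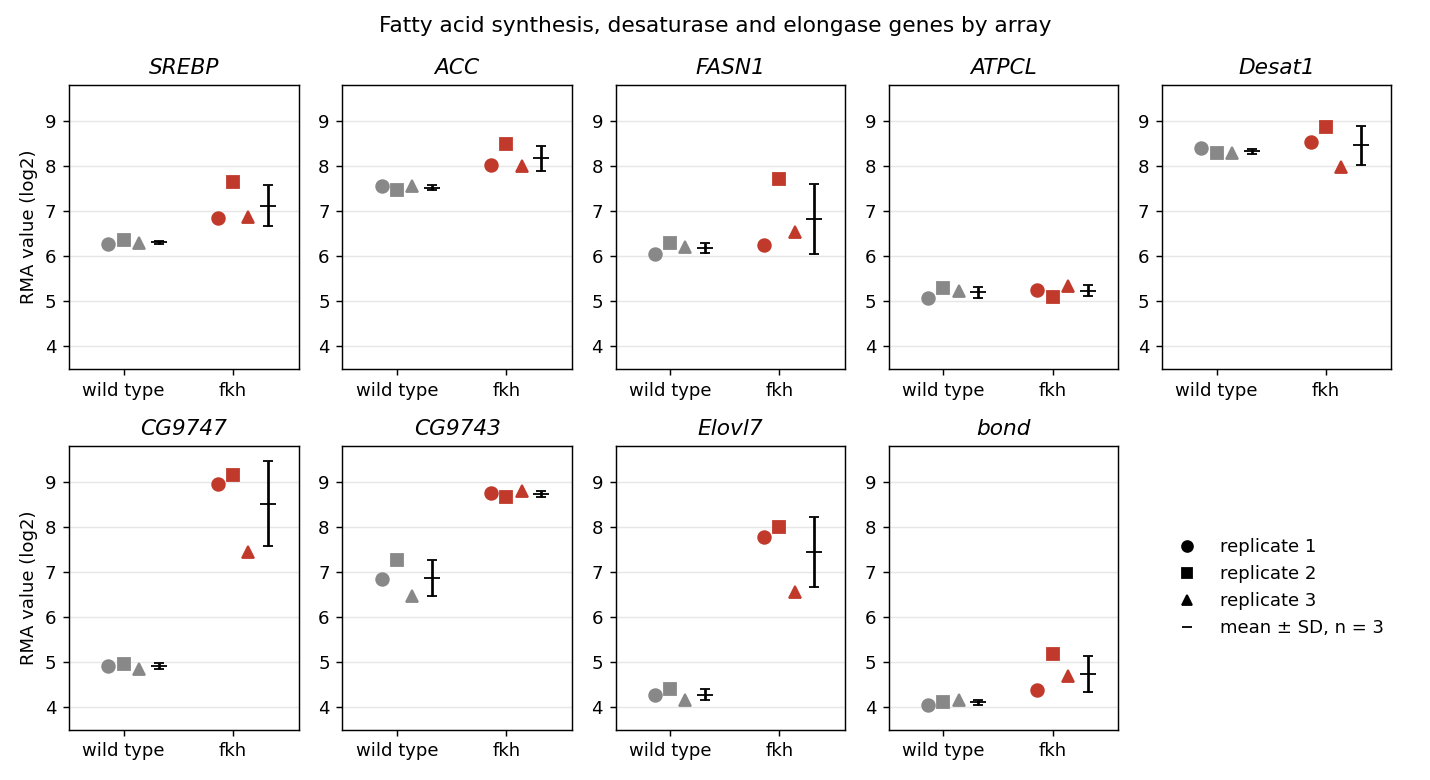
RMA values (log2, vertical axis) of the 9 measured genes in the 3 WT arrays (grey) and the 3 fkh arrays (red), with the mean and SD beside each group. CG9747, CG9743 and Elovl7 stand clear of WT in all 3 fkh arrays, while FASN1 is high in fkh replicate 2 alone and ATPCL overlaps throughout.

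The regulator of the pathway was higher in the mutants. SREBP was at 6.28, 6.35 and 6.30 in WT replicates 1, 2 and 3 and at 6.84, 7.65 and 6.88 in the fkh replicates (log2). The WT arrays lay within 0.07 of each other and the lowest fkh array was 0.49 above the highest of them, while fkh replicate 2 stood well above the other mutant arrays. The mean rose from 6.31 ± 0.04 to 7.12 ± 0.45 (SD, n = 3 arrays each), a 1.75-fold difference with a 95% interval of 1.25 to 2.47-fold (adjusted p = 0.040 from limma). This call was lost when any 1 of the WT arrays was left out (adjusted p = 0.13, 0.11 and 0.13 without WT replicate 1, 2 and 3 in limma) and without pooling of the spread over probe sets (0.15), although the fold stayed between 1.46 and 1.95 over all 16 alternatives.

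Of the genes that act on or beside SREBP, 7 were measured. SCAP, which escorts SREBP, and the proteases S1P and S2P, which cut it, were not called, with log2 fold changes of -0.14, -0.48 and -0.0051. Mondo and its partner bigmax, the sugar-sensing factors, were not called either, nor was the phosphatidate phosphatase gene Lpin (log2 fold changes of 0.02, -0.15 and -0.32). The 1 call was sug, a sugar-responsive zinc finger gene, which was 2.45-fold higher (mean log2 value 6.54 ± 0.42 in WT against 7.83 ± 0.33 in the mutants, SD of 3 arrays; adjusted p = 0.013 from limma, 0.093 without pooling of the spread). The list as a whole had a median log2 fold change of -0.14, and 1 call in 7 genes compares with 7.81% called higher among all genes with 1 probe set each. Where a gene had several probe sets, the brightest over all arrays stands for it.

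Among the enzymes that build saturated chains, ACC was higher. ACC was at 7.55, 7.46 and 7.55 in WT replicates 1, 2 and 3 and at 8.02, 8.49 and 8.001 in the fkh replicates. All mutant arrays were above all WT arrays, by at least 0.45, and fkh replicate 2 was again the highest. The difference was 1.57-fold with a 95% interval of 1.25 to 1.97-fold (adjusted p = 0.021 from limma), and it was no longer called without WT replicate 1, 2 or 3 (adjusted p = 0.076, 0.084 and 0.0795) or without pooling of the spread (0.10).

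FASN1 had nearly the same mean difference but did not pass the test. Its values were 6.06, 6.29 and 6.20 in WT replicates 1, 2 and 3 and 6.24, 7.71 and 6.54 in the fkh replicates. The groups overlapped, since fkh replicate 1 lay within the WT range and only fkh replicate 2 was far above it. The mean difference was 1.57-fold with a 95% interval of 0.88 to 2.77-fold (adjusted p = 0.26 from limma), and it was 1.16-fold without fkh replicate 2. The SD of FASN1 among mutant arrays, 0.77, was larger than in 98.05% of all probe sets.

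ATPCL, the first enzyme of the route, differed least. It was at 5.07, 5.30 and 5.23 in WT replicates 1, 2 and 3 and at 5.26, 5.10 and 5.35 in the fkh replicates, and the groups overlapped over almost their whole range. The mean log2 difference was 0.04 with a standard error of 0.10 (adjusted p = 0.84 from limma), and the 95% interval of the difference ran from 0.87 to 1.21-fold. Its WT mean, 5.20, was below the median WT mean of all probe sets (5.36), and no detection call was used.

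Of the further enzymes that supply carbon, reducing power or chains 6 could be measured, and 0 were called. Among all genes 7.81% were called higher and 7.9% lower, so 0 of 6 is near the array-wide share. AcCoAS, which makes acetyl-CoA from acetate, and the other synthase genes FASN2 and FASN3 had log2 fold changes of -0.03, 0.05 and 0.18. The means of FASN2, 4.91 in WT and 4.96 in fkh, lay under the array-wide median of WT means (5.36). Its values thus do not show that the gene was expressed and unchanged. For FASN3 the fkh arrays (8.90, 8.67 and 7.62 in replicates 1, 2 and 3) lay on both sides of its WT arrays. The NADP-dependent enzymes that provide NADPH gave larger values that missed the threshold. Idh was at 7.20, 7.10 and 7.10 in WT replicates 1, 2 and 3 and at 8.45, 9.51 and 7.72 in the fkh replicates (adjusted p = 0.053 from limma). Men-b had a log2 fold change of 0.76 (adjusted p = 0.074 from limma) and Men of 0.33 (adjusted p = 0.26). In Idh and Men-b all fkh arrays were above all WT arrays, a pattern found in 13.5% of all probe sets.

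The desaturases fell into 2 kinds. Desat1, the main stearoyl-CoA desaturase of the fly, was at 8.40, 8.30 and 8.29 in WT replicates 1, 2 and 3 and at 8.52, 8.86 and 7.99 in the fkh replicates. The mutant arrays lay on both sides of WT: fkh replicates 1 and 2 were above it and fkh replicate 3 below it. The log2 fold change was 0.13 (95% interval 0.78 to 1.53-fold, adjusted p = 0.71 from limma) and turned to -0.07 without fkh replicate 2.

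CG9747 showed the largest change of the 9 genes. It was at 4.91, 4.97 and 4.85 in WT replicates 1, 2 and 3 and at 8.95, 9.16 and 7.44 in the fkh replicates. The WT arrays were alike, whereas fkh replicate 3, though 2.47 above the highest WT array, was 1.72 below fkh replicate 2. The mean rose from 4.91 ± 0.06 to 8.51 ± 0.94 (SD, n = 3 arrays each), or 12.2-fold with a 95% interval of 6.15 to 24.1-fold (adjusted p = 0.0021 from limma). The fold was 17.7 without fkh replicate 3 and 9.74 without fkh replicate 2, and the call held in all 16 alternatives. Since the WT level lay under the array-wide median (5.36), the fold is sensitive to array background.

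The other desaturase that changed, CG9743, had a different pattern of spread. Its values were 6.85, 7.26 and 6.47 in WT replicates 1, 2 and 3 and 8.75, 8.65 and 8.80 in the fkh replicates. Here the mutants were alike (SD 0.07) and WT varied (SD 0.39, larger than in 99.1% of all probe sets). In the other 8 genes the SD was larger in the mutants, as it was in 78.1% of all probe sets. The SDs of ATPCL hardly differed (0.12 in WT and 0.13 in fkh). The lowest mutant array was 1.39 above the highest WT array. CG9743 was 3.66-fold higher in fkh mutants, with a 95% interval of 2.70 to 4.97-fold (adjusted p = 0.0012 from limma), and it was called in all 16 alternatives with folds of 3.20 to 4.203.

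**Figure D2:**
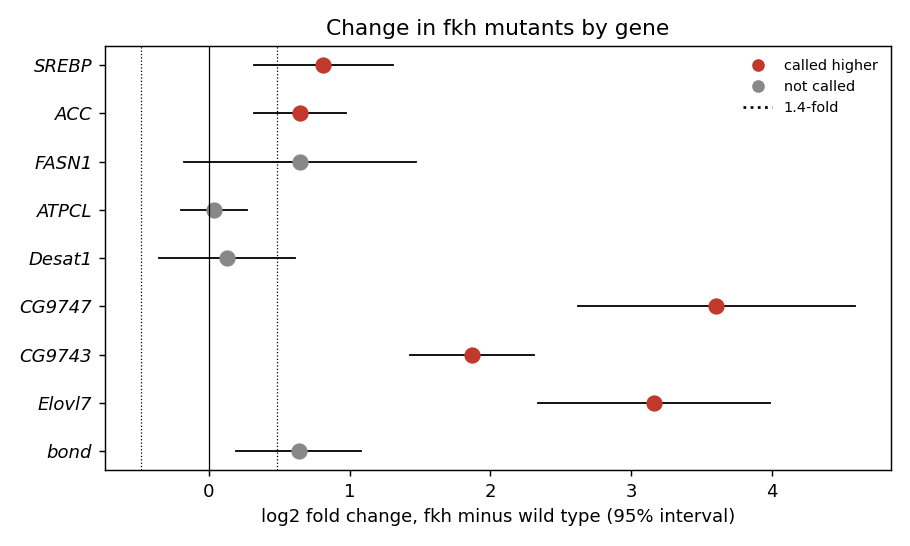
Log2 fold change of each measured gene, fkh minus WT, with its 95% interval from limma (3 arrays in each group); dotted lines mark 1.4-fold in either direction. CG9747, Elovl7 and CG9743 lie at 3.61, 3.16 and 1.87 with intervals clear of the dotted line, and the intervals of FASN1, ATPCL and Desat1 include 0.

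CG9747 and CG9743 lie close together on chromosome arm 3R, with 1 protein-coding gene between them in the RefSeq gene table (assembly Release 6). That gene is CG15531, itself annotated as a desaturase. CG15531 was at 4.70, 4.71 and 4.66 in WT replicates 1, 2 and 3 and at 4.80, 4.91 and 4.66 in the fkh replicates, with overlapping groups and a mean log2 difference of 0.10 ± 0.09 (SE; adjusted p = 0.47 from limma). The means of CG15531, 4.69 in WT and 4.79 in fkh, lay under the array-wide median of WT means (5.36). No detection call was used, so its values do not show that the gene was expressed and unchanged. The nearest measured genes outside the trio, Bet5 on one side and RpS7 on the other, were not called, with log2 fold changes of -0.12 and 0.05. A little further out the muscle myosin light chain gene Mlc2 and the gene Rsod were called higher, by 23.2-fold and 2.05-fold. Desat1 and Desat2, which lie near each other elsewhere on 3R, had log2 fold changes of 0.13 and -0.16. The gene fkh is on the same arm, with CG9747 placed 216 protein-coding genes away. Differences in sequence or expression that travel with the fkh6 chromosome cannot be told apart from the effect of the allele. On arm 3R, 7.18% of genes were called higher and 10.2% lower. None of the 5 other desaturase genes was called, against 7.81% of all genes called higher and 7.9% lower. Their median difference was 0.10 on the log2 scale. Besides CG15531 and Desat2 these were Fad2, which acts in female hydrocarbon synthesis, CG8630 and the sphingolipid desaturase gene ifc (log2 fold changes of -0.17, 0.36 and 0.23). The means of Fad2 and CG8630 also lay under the array-wide median in both groups.

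**Figure D3:**
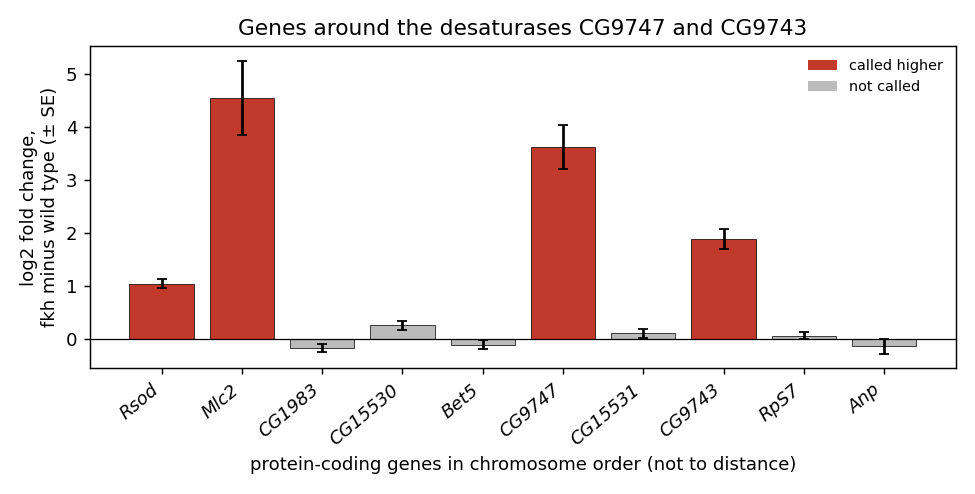
Log2 fold change with its standard error (vertical axis) for the measured protein-coding genes around CG9747 and CG9743, in chromosome order. CG9747 (3.61) and CG9743 (1.87) are called higher, and CG15531 between them (0.10), Bet5 (-0.12) and RpS7 (0.05) are not. Further out Mlc2 (4.54) and Rsod (1.04) are called higher as well.

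Elovl7, an elongase of the family that extends long acyl chains, rose nearly as much as CG9747. It was at 4.27, 4.399 and 4.17 in WT replicates 1, 2 and 3 and at 7.78, 7.99 and 6.56 in the fkh replicates. As for CG9747, fkh replicate 3 was the lowest mutant array and still 2.16 above all WT arrays. The mean rose from 4.28 ± 0.12 to 7.44 ± 0.77 (SD, n = 3 arrays each), a difference of 8.96-fold with a 95% interval of 5.07 to 15.8-fold (adjusted p = 0.0018 from limma). It was called in all 16 alternatives, with 12.2-fold without fkh replicate 3 and 7.41-fold without fkh replicate 2, and its low WT mean again ties the fold to the background of the array.

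The elongase gene bond, required in the male germ line, moved the same way without passing the threshold. It was at 4.06, 4.11 and 4.15 in WT replicates 1, 2 and 3 and at 4.37, 5.17 and 4.69 in the fkh replicates. The groups did not overlap, but fkh replicate 1 was only 0.22 above the highest WT array. The difference was 1.55-fold with a 95% interval of 1.14 to 2.12-fold (adjusted p = 0.062 from limma). It was called when limma was run with a trend (adjusted p = 0.043) and without fkh replicate 1 (1.77-fold, adjusted p = 0.021). Its mean in either group lay under the array-wide median of WT means.

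Of 16 other elongase genes that were measured, 14 were not called. The neighbours of bond on 3R include 3 of them, sit, CG33110 and CG5326, with log2 fold changes of -0.06, -0.05 and 0.27. CG18609 was 2.13-fold higher (mean log2 value 4.05 ± 0.13 in WT against 5.14 ± 0.51 in the mutants, SD of 3 arrays; adjusted p = 0.023 from limma). CG31141 went the other way and was 2.60-fold lower (6.54 ± 0.23 in WT and 5.16 ± 0.25 in fkh; adjusted p = 0.0022). The call of CG18609 was lost without any 1 of the WT arrays, without fkh replicate 1 or without pooling of the spread (adjusted p = 0.12), whereas that of CG31141 held in every alternative tried. CG5326 has 3 probe sets that disagreed. Its brightest was not called (log2 fold change 0.27), and a slightly dimmer one had a log2 fold change of 1.92 (adjusted p = 1.8e-04 from limma). The list had a median log2 fold change of -0.02, with 1 of 16 genes higher and 1 lower, close to the 7.81% and 7.9% of all genes. Most of the 14 uncalled genes had means under the array-wide median of WT means (5.36) in both groups, as did CG18609. No detection call was used, so such uncalled values do not show genes that were expressed and unchanged. The fold of CG18609 is likewise sensitive to array background.

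An elongase performs only the first step of the cycle, and 4 genes of its other steps were measured. Of these, 3 were called higher, against 7.81% of all genes, and 0 lower, with a median log2 fold change of 0.78. Hacd2, a 3-hydroxyacyl-CoA dehydratase, was at 9.67, 9.11 and 9.21 in WT replicates 1, 2 and 3 and at 10.40, 10.31 and 10.60 in the fkh replicates. The mutants did not overlap WT, and the difference was 2.16-fold (adjusted p = 0.0048 from limma). The 3-ketoacyl-CoA reductase gene spidey was 1.73-fold higher (adjusted p = 0.0080) and the enoyl-CoA reductase gene Sc2 1.71-fold higher (adjusted p = 0.0041). The other dehydratase gene, Hacd1, had an adjusted p of 0.034 but a log2 fold change of 0.31, below the fold minimum. Without pooling of the spread the calls of Hacd2 and spidey were lost (adjusted p = 0.056 and 0.063) and that of Sc2 was kept. In these 4 genes all fkh arrays were above all WT arrays, against 13.5% of all probe sets.

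**Figure D4:**
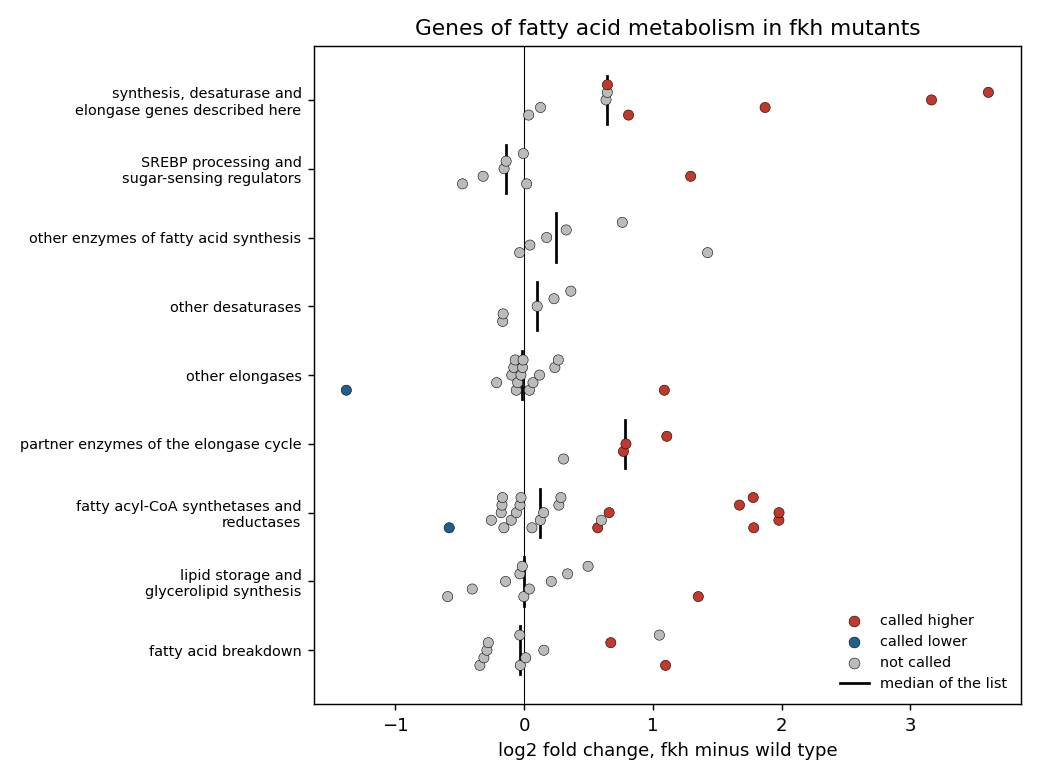
Log2 fold change, fkh minus WT, of each gene with 1 probe set per gene, in rows by list; red points were called higher, blue lower and grey not called, and black bars mark medians. The genes described here and the partner enzymes of elongation have medians of 0.65 and 0.78, and the other 7 lists have medians between -0.14 and 0.25.

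Enzymes that activate fatty acids or reduce them to alcohols varied. Of 23 genes, 7 were called higher and 1 lower, against 7.81% and 7.9% of all genes, with a median log2 fold change of 0.13. The reductase genes CG5065, wat, CG30427 and CG8303 were 3.94-fold, 3.94-fold, 3.44-fold and 3.43-fold higher (adjusted p = 0.0067, 0.033, 0.0013 and 0.0048 from limma). The WT means of all 4 lay under the array-wide median, so these folds too are sensitive to array background, and without pooling of the spread CG5065 and CG8303 were not called (adjusted p = 0.071 and 0.061). The gene wat encodes waterproof, which is needed for gas filling of the trachea. It was at 4.31, 4.51 and 4.45 in WT replicates 1, 2 and 3 and at 6.83, 7.21 and 5.18 in the fkh replicates, and its call was lost without pooling of the spread (adjusted p = 0.15) and when any 1 array except fkh replicate 3 was left out. Without fkh replicate 3 the difference was 6.03-fold. The other probe sets of CG30427 gave log2 fold changes of 1.16 (called) and -0.26 (not called), and the mean of its probe sets was 1.86-fold higher. Fatp1, a fatty acid transport protein gene, was 1.496-fold lower (adjusted p = 0.012), a call lost without WT replicate 2, after cyclic loess and without pooling of the spread (adjusted p = 0.065).

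Storage and breakdown of fat showed few calls, to be read against 7.81% of all genes called higher. Of 11 genes of storage and glycerolipid synthesis, the 1 called was Lsd-1, which encodes the lipid droplet protein perilipin 1. It was at 6.25, 6.32 and 6.19 in WT replicates 1, 2 and 3 and at 7.52, 7.68 and 7.63 in the fkh replicates, a 2.55-fold rise with little spread (adjusted p = 1.7e-04 from limma). The lipase gene bmm and the acyltransferase genes Gpat4 and mdy were not called (log2 fold changes of -0.0014, -0.03 and 0.34). Of 11 genes of fatty acid breakdown 2 were called higher and 0 lower, with a median of -0.03. These were Mtpbeta, a subunit of the mitochondrial trifunctional protein (2.14-fold, adjusted p = 0.029), and the dehydrogenase gene scu (1.595-fold, adjusted p = 0.022), and both calls were lost without any 1 of the WT arrays or without pooling of the spread (adjusted p = 0.13 and 0.10). That of Mtpbeta was also lost without fkh replicate 1, and that of scu with array weights.

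The mutant collections differed among themselves in these genes. Of the 9 genes, 7 were highest in fkh replicate 2 among the mutant arrays (SREBP, ACC, FASN1, Desat1, CG9747, Elovl7 and bond). This was so for 22.5% of all probe sets and for 67.3% of the probe sets called higher. CG9747 and Elovl7 were high in both fkh replicates 1 and 2, by 4.04 and 4.25 and by 3.497 and 3.71 above their WT means, and lower in fkh replicate 3 (2.53 and 2.28). SREBP and ACC were instead close together in fkh replicates 1 and 3 (0.53 and 0.57, and 0.496 and 0.48, above their WT means) and highest in fkh replicate 2 (1.33 and 0.97). FASN1 was 0.056, 1.52 and 0.36 above its WT mean in fkh replicates 1, 2 and 3. CG9743 was nearly the same in all 3 mutant arrays, at 1.89, 1.79 and 1.94 above its WT mean. ATPCL was lowest in fkh replicate 2.

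Some marker genes of tissues that handle such lipids were called as well, and their counts are to be set against 7.81% of all genes called higher and 7.9% lower. Of 7 measured markers of trachea, 3 were called higher and 0 lower, and their summed intensity ran from 2155 to 2487 in WT arrays and from 4781 to 7870 in fkh arrays. Gasp, serp and verm, which act on the chitin of the tracheal lumen, were 40.01-fold, 19.95-fold and 10.3-fold higher. In WT replicates 1, 2 and 3 Gasp was at 4.70, 6.40 and 5.45 and serp at 5.09, 6.76 and 5.81, so the size of their folds is uncertain. The fold of Gasp was 30.1 without WT replicate 1 and 54.4 without WT replicate 2. In contrast vvl, kni and btl, which act in early tracheal development, and pio were not called on their brightest probe sets. A dimmer probe set of vvl was 1.48-fold higher (adjusted p = 0.043 from limma). Of 7 oenocyte markers, 2 were called higher and 0 lower (summed intensity 2350 to 2587 in WT and 2732 to 2990 in fkh). They were CG18609 and Cyp4g1, the cytochrome P450 of hydrocarbon synthesis, which was at 5.97, 5.75 and 5.96 in WT replicates 1, 2 and 3 and at 7.45, 7.71 and 6.45 in the fkh replicates (2.48-fold, adjusted p = 0.028 from limma). Both calls were lost without any 1 of the WT arrays, without fkh replicate 1 or without pooling of the spread. The other oenocyte markers (svp, salm, Hnf4, FASN3 and Ugt35A1) were not called on their brightest probe sets, although a dimmer one for svp was 1.86-fold higher. Of the oenocyte markers salm was the brightest (mean log2 value 10.73 in WT and 10.86 in fkh), so it weighs most in their summed intensity. CG18609 and FASN3 belong to the lists of enzymes above as well.

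Of 6 fat body markers, 2 were higher and 1 lower (summed intensity 5994 to 6575 in WT and 6616 to 8806 in fkh). The collagen gene Col4a1 was 12.2-fold and the lipoprotein gene apolpp 1.42-fold higher, and the GATA factor gene srp was 1.57-fold lower. The late fat body genes Fbp1, Fbp2 and Lsp2 were not called. Their means (5.48, 4.96 and 5.36 in WT and 5.43, 4.91 and 5.17 in fkh) lay near or under the array-wide median of WT means (5.36). Such values do not show genes that were expressed and unchanged. Of the fat body markers apolpp was the brightest (mean log2 value 11.91 in WT and 12.42 in fkh), so it weighs most in their summed intensity. The call of apolpp was lost without pooling of the spread (adjusted p = 0.097), after centring on array medians (1.36-fold) and when any 1 array except fkh replicate 3 was left out. That of srp was lost without pooling of the spread (adjusted p = 0.073) and without WT replicate 2 or WT replicate 3. None of 8 amnioserosa and yolk markers was called, with a median log2 fold change of -0.29. Their summed intensities were 8117 to 8380 in WT and 6343 to 7881 in fkh. Doc1, Doc3 and ush had adjusted p of 0.036, 0.036 and 0.032 from limma, but log2 fold changes of -0.33, -0.42 and 0.38, below the fold minimum. In Gasp, verm, wat and Cyp4g1, as in CG9747 and Elovl7, fkh replicate 2 was the highest and fkh replicate 3 the lowest mutant array. The same order was seen in ACC and Desat1 but not in SREBP, FASN1, ATPCL, CG9743 or bond. It was also seen in serp, Col4a1, apolpp and the muscle gene Mlc2, so it was not particular to the markers of 1 tissue. Among all probe sets called higher 55.6% were lowest in fkh replicate 3, and among all probe sets 28.3%. The part of these tissues, or of the age of the collections, in the changes of the 9 genes was not tested.

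**Figure D5:**
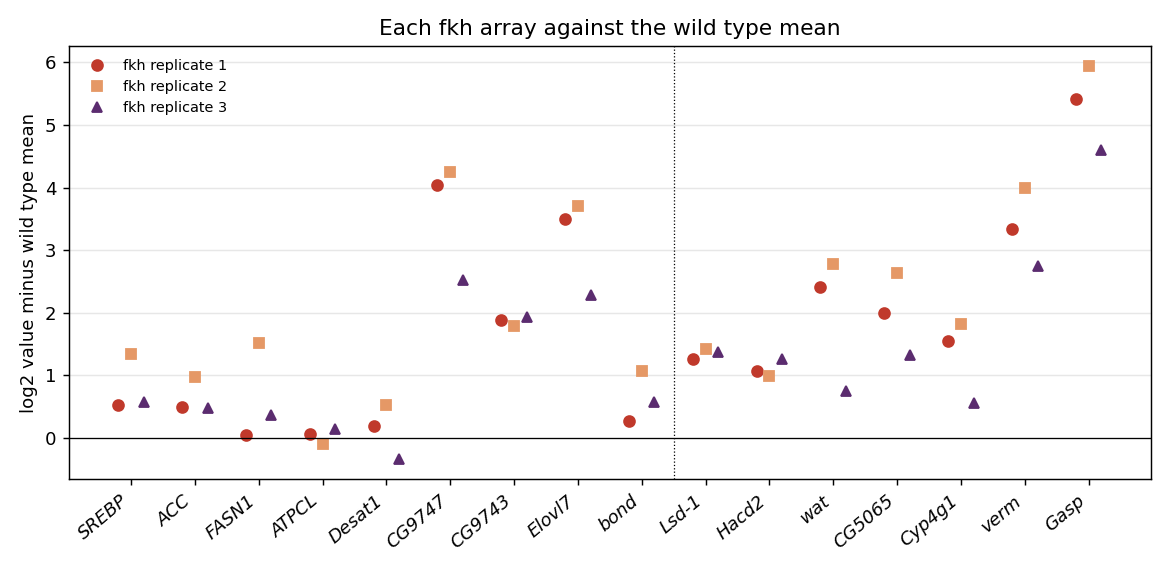
Log2 value of each fkh array minus the WT mean, for the 9 genes (left of the dotted line) and 7 related or marker genes (right). In ACC, Desat1, CG9747, Elovl7, wat, CG5065, Cyp4g1, verm and Gasp fkh replicate 3 is the lowest mutant array, whereas CG9743, Lsd-1 and Hacd2 differ little between mutant arrays.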

How the data were processed

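The authors hybridized 3 WT and 3 fkh collections of stage 11 embryos to Affymetrix Drosophila Genome 2.0 arrays, 1 per collection, and normalized them with RMA in Partek (versions not given in the sources used here). The deposited values are log2 intensities of 18769 probe sets. The largest, 14.8, fits a scanner range at base 2. RMA evens out the distributions of the arrays, so a shift of most transcripts would be hidden. No value was filtered out, and the number of arrays limits the precision.

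Probe sets took their gene from the platform annotation, updated through the RefSeq gene table (13647 named 1 gene, 402 several and 4720 none). The 6 arrays were fitted in R 4.3.3 by lmFit and eBayes of limma 3.58.1, without covariates or filter, and p-values were corrected with the Benjamini-Hochberg procedure. The paper's threshold is a fold of 1.4 and a p under 0.05, for which it names no test. The fit was also run on simulated data with the same spread in both groups. In the real arrays 78.1% of probe sets had a larger SD in fkh, so the simulation does not check the calls under that spread. Intervals use limma's moderated spread.

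The genes and lists were chosen with earlier results of these arrays known. All 9 measured genes are named, and in each list the called genes of largest change (at most 4) and those going against its median (at most 2). Those outside this rule were named after their values were seen. Alternatives were no pooling of the spread, a trend, array weights, cyclic loess, centring on array medians, a block for replicate number, dropping the dimmest 25% of probe sets or 1 array at a time, other fold minimums and averaging a gene's probe sets. Figures were drawn with matplotlib 3.10.9.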

Additional observations from a re-analysis of the deposited data

How the results depend on the processing

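Of the 9 genes, 5 were called higher, and 3 without pooling of the spread, with a fold minimum of 2, or without any 1 of the WT arrays (3 to 6 over the arrays left out in turn). The 3 were CG9747, CG9743 and Elovl7, and the count lower was 0 throughout. Their median log2 fold change of 0.65 ran from 0.49 to 0.94 when arrays were left out in turn. The sign of ATPCL turned after centring on array medians (-0.022), without WT replicate 1 (-0.029, the lowest value with an array left out, the highest being 0.104) and without fkh replicate 3 (-0.021). That of Desat1 turned without fkh replicate 2 (-0.074, against up to 0.363 with another array left out). Neither gene was called in any setting. Over all probe sets, 1162 were called higher and 1151 lower. These counts were 406 and 538 without pooling, and 683 and 264 with a fold minimum of 2. They ran from 668 to 1522 and from 705 to 1355 when arrays were left out, with the lowest counts without a WT array (668 to 761 higher). After cyclic loess 1298 were higher and 690 lower, and with no fold minimum 1795 were lower. Median changes over all probe sets were -0.08, 0.0057 after cyclic loess and -0.13 after centring. The cause was not tested.

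Deviations from the group means correlated at 0.072, 0.073 and -0.079 between arrays of the same number. The labels give only a replicate number, and these values do not show whether such arrays were handled together. With the replicate number as a block, 5 of the 9 genes were called higher, with the same median of 0.65, and no call changed among the 32 genes whose values were compared across settings (the 9 genes, the called genes named by rule from the lists, and fkh). Without pooling of the spread 16 of the 32 lost their call. Low WT values limit the size of the folds of CG9747 and Elovl7.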
